A study of Cricetulus griseus with 3 samples.

Results

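The 10 genes of amyloid precursor protein (APP) processing described here were followed across 3 cDNA arrays that set S-1 cells against parental cells treated with DAPT. They were Psenen, Aph1a, Ncstn and Psen2 for γ-secretase subunits, App, Aplp2 and Clstn1 for its substrates, Adam10 and Adam17 for α-secretases, and Mme for neprilysin. The members were every spot whose annotation named 1 of these 10 genes and no other gene, which gave 18 of the 16928 tested spots and 10 of the 8146 genes with a value. CHO is a long-established Chinese hamster ovary cell line, and the S-1 line was made from it through an earlier transfected line. S-1 cells carried stable constructs for the human γ-secretase subunits, namely Flag-PEN2, APH1-a2-HA, NCT-GST and presenilin 1 (PS1), and the study lists App as overexpressed in them. The S-1 cells were kept under blasticidin (10 µg/ml), G418 (200 µg/ml), hygromycin and zeocin (250 µg/ml each) and puromycin (25 µg/ml). They received 0.05% DMSO for 24 h. The parental CHO cells were not transfected, were grown without these drugs and received the γ-secretase inhibitor DAPT at 10 µM in the same concentration of DMSO for 24 h. Both lines were cultured as biological triplicates, and on every array an S-1 culture was set against a DAPT-treated culture of CHO (n = 3 arrays throughout). The S-1 cells were 1 line, so that the constructs, the selection, the line itself and the inhibitor cannot be told apart in the ratios. A ratio carries no level, so the identity of the line could not be checked against marker genes.

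γ-Secretase is a protease that cuts its substrates within the membrane. Presenilin forms its catalytic centre, nicastrin (the product of Ncstn) its large extracellular part, and Aph1 and Pen2 (the product of Psenen) are small membrane proteins needed to assemble and activate the complex. APP is first shed by an α-secretase such as ADAM10 or ADAM17, or by the β-secretase BACE1, and the remaining stub is then cut by γ-secretase. The β-secretase route yields the amyloid-β peptide, which neprilysin and other proteases degrade. The comparison asked which transcripts differ between cells with raised and cells with blocked γ-secretase activity.

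The arrays were printed with amplified mouse cDNA clones in 32 print-tip blocks of 552 positions. A spot is called here by its block and, where a block holds more than 1 spot of a gene, by its position. Values are log2 ratios with S-1 as numerator and DAPT-treated CHO as denominator, so that a positive value means more signal in S-1 cells. The sample titles name DAPT-treated CHO first for arrays 1 and 2 and S-1 first for array 3, an order not used here as the direction. The labels do not state the direction of the deposited ratios. It was read from the spots of the transfected subunits, which are positive on all 3 arrays, and from the tested spots, whose ratios correlate positively between the dye-swapped array 3 and the others. The 736 spots taken as controls correlate at -0.960 between arrays 1 and 3. S-1 RNA was in Cy3 on arrays 1 and 2 and in Cy5 on array 3. A mouse clone can bind the hamster transcript and that of a human construct, and the signal does not separate them. Each spot was tested against 0 with limma, with Benjamini-Hochberg adjustment over all tested spots, and passed at an adjusted p under 0.005. The tested spots had SDs of 0.46 to 0.52 on the arrays, and Pearson's r across them (not independent replicates) was 0.962 for the pair with S-1 RNA in Cy3, and 0.878 and 0.892 for array 3 against each of them. Spots at position 373 and positions 505 to 552 of every block stood apart, with 38.2% of 1568 higher in S-1 cells against 6.76% of the other 15360. Of the member spots, 1 spot of Adam17 lies there.

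Of the 18 member spots, 4 rose in S-1 cells, 3 fell and 11 did not pass. That is 38.9% past the threshold beside 18.2% of all tested spots (22.2% that rose beside 9.68%, and 16.7% that fell beside 8.52%). The spots that rose were those of Psenen and Aph1a, 1 of 3 App spots and 1 of 3 Adam17 spots. The spots that fell were 1 of 2 for Aplp2, 1 of 2 for Clstn1 and 1 of 2 for Adam10. The sign was the same on all 3 arrays for 14 of the 18 spots (77.8% beside 67.6% of all tested spots). At a threshold of 0.05, 11 of the 18 passed (61.1% beside 39.8%). S-1 cells carry human constructs of Psenen and Aph1a, whose spots served to set the direction of the ratios. The study lists App as overexpressed in S-1 cells. The members were also chosen with earlier results of these data known, so the shares above are a description only. In order of the mean ratio, Psenen lay above Aph1a with no overlap between their arrays, the ranges of Aph1a and the highest App spot overlapped, and a gap without overlap followed down to Adam17. The 3 lowest spots, of Adam10, Aplp2 and Clstn1, overlapped each with its neighbour in that order.

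**Figure D1:**
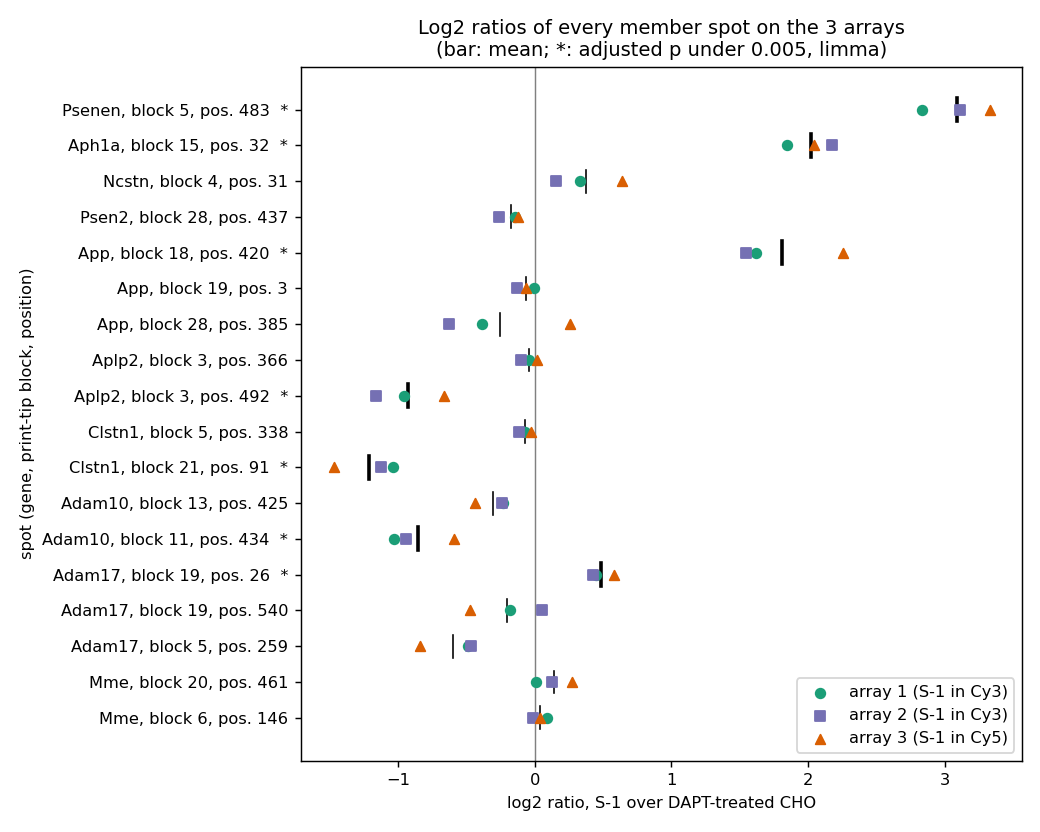
Log2 ratios (horizontal axis, S-1 over DAPT-treated CHO) for each of the 18 member spots (vertical axis, with print-tip block and position), 1 symbol per array, with the mean as a bar and an asterisk at spots past the threshold. Psenen (2.84 to 3.33), Aph1a (1.85 to 2.17) and 1 App spot (1.55 to 2.26) lie far to the right, while the other App spots lie around or below 0.

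Of the 4 subunit genes, Psenen and Aph1a rose in S-1 cells, and Ncstn and Psen2 did not pass. Psenen (mouse Entrez gene 66340), which encodes Pen2, had 1 spot, with log2 ratios of 2.84, 3.11 and 3.33 on arrays 1 to 3. All 3 arrays were high, and the mean of 3.09 ± 0.25 (SD, n = 3, limma adjusted p = 1.17e-04) is a linear ratio of 8.53. It was rank 5 from the highest of the 16928 tested spots and rank 3 of the 15360 spots outside the positions that stood apart. Aph1a (Entrez gene 226548) also had 1 spot, at 1.85, 2.17 and 2.04 on arrays 1 to 3. Its mean of 2.02 ± 0.16 (SD, n = 3, limma adjusted p = 1.23e-04) is a linear ratio of 4.06, rank 204 of all tested spots and rank 9 of the 15360. At the positions of the Psenen and Aph1a spots the medians of the 32 blocks were -0.03 and 0.16. Both genes are among those whose human constructs S-1 cells carry. Since the direction of the ratios was read from such spots, their sign is no independent check of the labels. Both passed in each of the 14 alternative settings.

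Ncstn (Entrez gene 59287), whose construct S-1 cells also carry as NCT-GST, had 1 spot at 0.33, 0.15 and 0.64 on arrays 1 to 3. All 3 values were above 0, but they spread over more than their mean. At the position of the Ncstn spot the median of the blocks was 0.27, so that spots there tended to lie above 0. The mean was 0.38 ± 0.25 (SD, n = 3, 95% interval 0.12 to 0.63, limma adjusted p = 0.0352). The Ncstn value depended on the arrays used. It was 0.24 without array 3 (limma adjusted p = 0.00737) and 0.49 without array 2 (limma adjusted p = 0.0489). Without array 1 it was 0.40 (limma adjusted p = 0.0933), and with array weights 0.27 (limma adjusted p = 0.0207). At the threshold of 0.005 the spot passed in 1 of the alternative settings, with the dye as a second coefficient (0.44, limma adjusted p = 8.46e-05). Psen2 (Entrez gene 19165) encodes a presenilin that was not among the constructs. Its spot was at -0.14, -0.26 and -0.12, slightly below 0 on every array. The mean was -0.17 ± 0.08 (SD, n = 3, 95% interval -0.31 to -0.04, limma adjusted p = 0.0491).

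Of the 3 spots of App (Entrez gene 11820), the precursor of amyloid-β, 1 rose and the others did not pass. The spot in block 18 was at 1.62, 1.55 and 2.26 on arrays 1 to 3, and rose with a mean of 1.81 ± 0.39 (SD, n = 3, limma adjusted p = 9.16e-04), a linear ratio of 3.5 and rank 12 of the 15360. The study's notes list App as overexpressed in S-1 cells. In block 19 the spot was at -0.01, -0.13 and -0.07, close to 0 on every array (mean -0.07 ± 0.06, 95% interval -0.19 to 0.06, limma adjusted p = 0.33). That of block 28 was at -0.38, -0.63 and 0.26, below 0 on arrays 1 and 2 and above 0 on the dye-swapped array 3 (mean -0.25 ± 0.46, 95% interval -0.69 to 0.19, limma adjusted p = 0.303). Without array 3 this spot passed as lower in S-1 cells (-0.51, limma adjusted p = 1.94e-04), on arrays where S-1 RNA was in Cy3 alone. Without array 2 it was at -0.06 (limma adjusted p = 0.839), and with the dye as a coefficient at -0.12 (limma adjusted p = 0.0921). The call in block 18 was lost without array 2 (1.94, limma adjusted p = 0.00932) and with the control spots included in the fit (limma adjusted p = 0.00637).

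The differences between the App spot in block 18 and each of the other App spots were larger than their spread over the arrays. Within arrays, the spot in block 18 exceeded that in block 28 by 2.01 on array 1, 2.18 on array 2 and 2.0 on array 3, a mean of 2.06 ± 0.10 (SD, n = 3, limma adjusted p = 8.81e-05 over 6875 pairs). Each of these spots alone varied more (SD 0.39 and 0.46) than their difference did, since both were higher on array 3. It exceeded the spot in block 19 by 1.63, 1.68 and 2.32 (mean 1.88 ± 0.39, limma adjusted p = 9.50e-04), a call lost without array 2 (limma adjusted p = 0.00824). The spots in blocks 19 and 28 did not differ past the threshold (0.19 ± 0.45, 95% interval -0.25 to 0.62, limma adjusted p = 0.463), but did without array 3 (0.44, limma adjusted p = 8.27e-04). Averaged over the 3 spots, App had a gene value of 0.50 ± 0.29 (SD, n = 3), which did not pass (limma adjusted p = 0.0193) and describes none of its spots.

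Aplp2 and Clstn1 each had 1 spot that fell and 1 spot close to 0. Aplp2 (Entrez gene 11804) encodes an APP relative that γ-secretase also cuts. Its spot at position 492 of block 3 was at -0.96, -1.16 and -0.66 on arrays 1 to 3, and fell to a mean of -0.93 ± 0.25 (SD, n = 3, limma adjusted p = 0.00207), 1.9 times more signal in DAPT-treated CHO. The spot at position 366 of the same block was at -0.04, -0.10 and 0.02 (mean -0.04 ± 0.06, 95% interval -0.16 to 0.08, limma adjusted p = 0.55). Both lay in 1 print-tip block and so were normalised together, and no array of one overlapped with those of the other. They differed by 0.89 ± 0.19 (SD, n = 3, limma adjusted p = 0.00191). The fall was lost without array 1 (limma adjusted p = 0.00949), without array 2 (limma adjusted p = 0.0172), with the control spots included (limma adjusted p = 0.0103) and with a 2-fold minimum. The difference between the spots was lost without array 1 or 2 (limma adjusted p = 0.0111 and 0.0178).

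Clstn1 (Entrez gene 65945) encodes calsyntenin 1, a membrane cargo adaptor that α- and γ-secretase cut in the manner of APP. Its spot in block 21 was at -1.04, -1.12 and -1.47, the lowest of all member spots, with a mean of -1.21 ± 0.23 (SD, n = 3, limma adjusted p = 7.85e-04). This is 2.31 times more signal in DAPT-treated CHO and rank 146 from the lowest of the 16928 spots. Its other spot, in block 5, was at -0.07, -0.12 and -0.03, all just below 0 (mean -0.07 ± 0.05, 95% interval -0.19 to 0.05, limma adjusted p = 0.283). The arrays of both spots did not overlap, and the difference was 1.14 ± 0.27 (SD, n = 3, limma adjusted p = 0.00175). Without array 2 neither the fall (limma adjusted p = 0.0121) nor the difference (limma adjusted p = 0.0144) passed, and with the control spots included the fall did not (limma adjusted p = 0.00551).

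Both spots of Adam10 were below 0 on every array, and 1 of them fell. ADAM10 (Entrez gene 11487) is the main constitutive α-secretase of APP and also sheds Notch. Its spot in block 11 was at -1.03, -0.94 and -0.59 on arrays 1 to 3, a mean of -0.86 ± 0.23 (SD, n = 3, limma adjusted p = 0.00222) and 1.81 times more signal in DAPT-treated CHO. Its other spot, in block 13, was at -0.23, -0.24 and -0.44, with no overlap with the first, and its mean of -0.30 ± 0.12 did not pass (95% interval -0.46 to -0.15, limma adjusted p = 0.0143). The spots were closest to each other on array 3, and their difference of 0.55 ± 0.35 did not pass (limma adjusted p = 0.0345), though it did without array 3 (0.75, limma adjusted p = 3.59e-05), with array weights (limma adjusted p = 0.00143) and with the dye as a coefficient (limma adjusted p = 2.47e-04). The fall in block 11 was lost without array 1 (limma adjusted p = 0.00849), without array 2 (limma adjusted p = 0.0282), with the control spots included (limma adjusted p = 0.0107) and with a 2-fold minimum. That in block 13 passed without array 3 (limma adjusted p = 0.0036), with the dye as a coefficient (limma adjusted p = 1.67e-04) and with array weights (limma adjusted p = 0.00444). The gene value of Adam10, the mean of both spots, fell by 0.58 ± 0.06 on the log2 scale (limma adjusted p = 7.96e-04), a call lost without array 1 (limma adjusted p = 0.00788) or array 2 (limma adjusted p = 0.00989). It varied less than either spot, since array 3 lay lower than the mean of arrays 1 and 2 in block 13 (-0.20) and higher in block 11 (0.40). The gene value lies between the spots and describes neither of them.

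The 3 spots of Adam17 (Entrez gene 11491), whose product TACE sheds tumour necrosis factor α, Notch and APP, gave means of both signs. The spot at position 26 of block 19 was at 0.45, 0.43 and 0.58 and rose with a mean of 0.49 ± 0.08 (SD, n = 3, limma adjusted p = 0.00208), a linear ratio of 1.4. In block 5 the spot was at -0.48, -0.46 and -0.84, lower on every array, and stood just outside the threshold (mean -0.59 ± 0.21, 95% interval -0.82 to -0.37, limma adjusted p = 0.00539). The spot at position 540 of block 19 was at -0.18, 0.05 and -0.48, on both sides of 0 (mean -0.20 ± 0.26, 95% interval -0.47 to 0.07, limma adjusted p = 0.195). The median of the 32 blocks at position 540 was 0.48, so that this spot was low for its place. That median was 0.15 at position 26, where the spot that rose was at 0.49. It was -0.02 at the position of the spot in block 5. The spots at position 26 and in block 5 differed by 1.08 ± 0.29 (SD, n = 3, limma adjusted p = 0.00266), with 0.93, 0.89 and 1.42 on arrays 1 to 3.

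The Adam17 calls depended on the settings. The spot in block 5 passed as lower with each array centred on its median (limma adjusted p = 0.00494), with the arrays scaled alike (limma adjusted p = 0.00471), with quantile normalisation (limma adjusted p = 0.00401), with the dye as a coefficient (limma adjusted p = 2.49e-06), with array weights (limma adjusted p = 7.46e-04), with adjustment over singly named spots (limma adjusted p = 0.00474) and without array 3 (-0.47, limma adjusted p = 5.79e-05). At position 540 the spot passed as lower with the dye as a coefficient (-0.27, limma adjusted p = 0.00289). The rise at position 26 was lost without array 1 (limma adjusted p = 0.0124), without array 2 (limma adjusted p = 0.0244), with the control spots included (limma adjusted p = 0.00776) and with a 2-fold minimum. The difference between them was lost without array 1 (limma adjusted p = 0.00774) and without array 2 (limma adjusted p = 0.0154). The gene value of Adam17 was -0.10 ± 0.13 (limma adjusted p = 0.233).

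Neither spot of Mme (Entrez gene 17380), the gene of the amyloid-β-degrading protease neprilysin, passed in any of the 14 alternative settings. The spot in block 20 was at 0.01, 0.13 and 0.28 (95% interval -0.03 to 0.30), and that in block 6 at 0.09, -0.01 and 0.04 (95% interval -0.08 to 0.16). All but 1 of these values were above 0. The means were 0.14 ± 0.13 and 0.04 ± 0.05 (SD, n = 3, limma adjusted p = 0.158 and 0.551), and the spots differed by 0.10 (95% interval -0.11 to 0.31, limma adjusted p = 0.414).

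**Figure D2:**
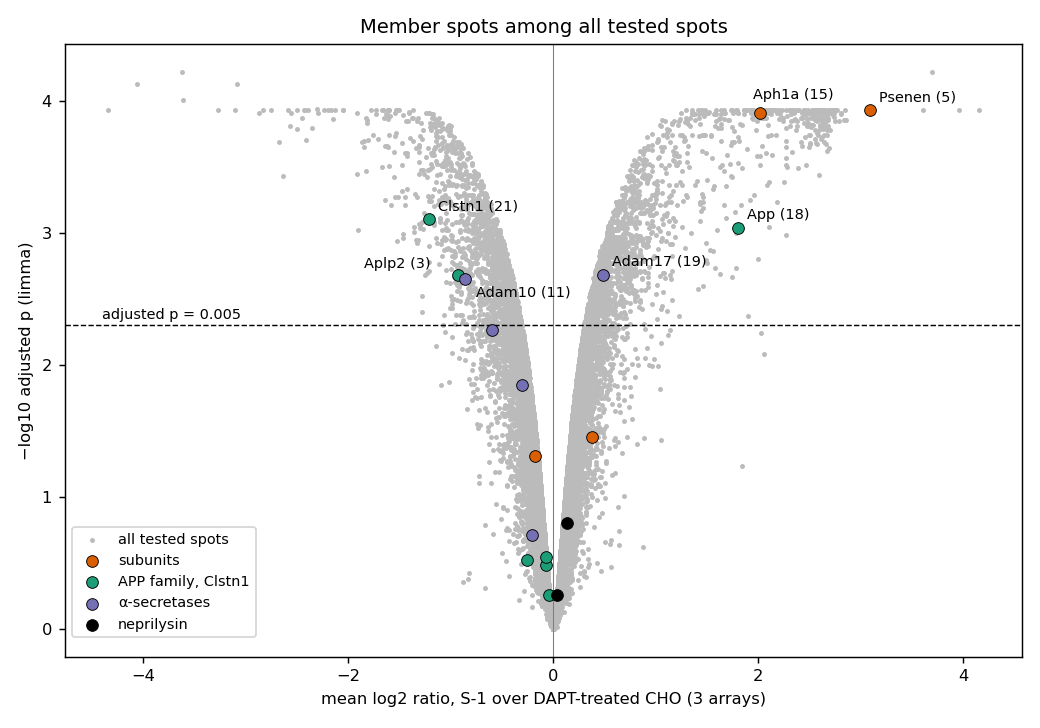
Mean log2 ratio over 3 arrays (horizontal axis, positive where S-1 is higher) against -log10 of limma's adjusted p (vertical axis) for all 16928 tested spots in grey and the 18 member spots in colour, with the block of the 7 that passed and a dashed line at 0.005. Psenen and Aph1a lie at the upper edge, App (block 18) below it, and 11 member spots lie under the line.

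Spots that carry the same gene name therefore gave different calls for 5 of the 6 members with several spots (App, Aplp2, Clstn1, Adam10 and Adam17), where some spots passed and others did not. The same was found for 29% of the 2877 genes on the array with 2 or more spots. Among genes with exactly 2 spots it was 23.9% of 1885, and among those with exactly 3 it was 35.9% of 652. As reported, none of the 6 members had a spot that rose beside one that fell (1.67% of the genes on the array). In 8 of the 14 alternative settings Adam17 had both, and App did as well without array 3. Of the 10 pairs of member spots with 1 gene name, 5 differed past the threshold (50%), beside 13.9% of all 6875 such pairs. These pairs belonged to 4 of the 6 members, beside 20.6% of the genes with 2 or more spots. The median pair on the array differed by 0.16 and the 95th percentile was 1.10. The widest member pair (App, blocks 18 and 28, 2.06) was reached or exceeded by 146 pairs. Without the positions that stood apart, 386 of the 5814 pairs left on the array differed (6.64%), and 5 of the 8 member pairs left (62.5%). The clones behind the spots, the part of each transcript they cover and their match to hamster RNA were not analysed here.

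**Figure D3:**
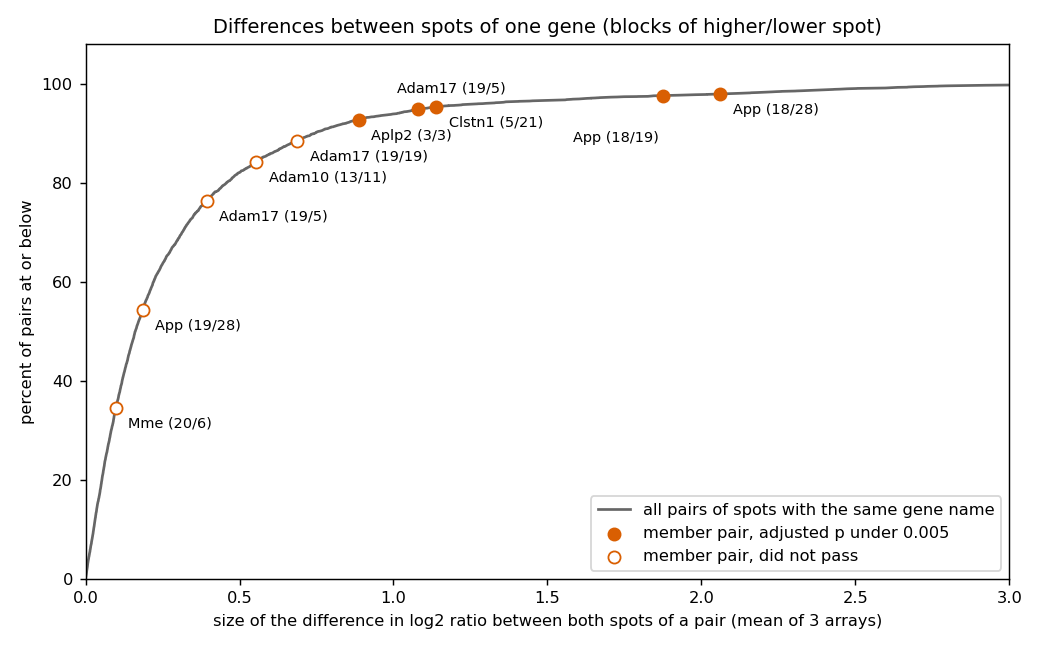
Size of the difference in mean log2 ratio between 2 spots of one gene (horizontal axis) against the percent of all 6875 pairs at or below that size (vertical axis), with the 10 member pairs as circles, filled where limma's adjusted p was under 0.005. The App pairs with block 18 lie at 97.9% and 97.6%, and the Mme pair lies at 34.6%.

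The dye-swapped array 3 moved several members away from arrays 1 and 2. Over all tested spots, array 3 minus the mean of arrays 1 and 2 had an SD of 0.235. It was 0.67 for the App spot in block 18 and 0.76 for that in block 28, while array 3 of the spot in block 19 lay between arrays 1 and 2. It was 0.36 for Psenen, 0.39 for Ncstn, 0.39 for the Aplp2 spot that fell and 0.40 for the Adam10 spot that fell, which all lay higher on array 3. It was -0.39 for the Clstn1 spot that fell, and -0.36 and -0.41 for the Adam17 spots in block 5 and at position 540. Aph1a, at 0.03, was alike under both dye orientations. With 1 swapped array, the dye and the third pair of cultures cannot be told apart.

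The spots nearest to the members with mean ratios beyond 1 were sought by Euclidean distance over the 3 arrays, as a description with 3 values per spot. Those nearest to Psenen were of Grpr, Crhr2 and Grb7 (distances 0.42 to 0.44). Those nearest to Aph1a were of Cish, Gast and Pmvk (0.11 to 0.13), and those nearest to the App spot in block 18 were of Ptgs2, Dvl3 and Cpt1a (0.20 to 0.31). All 9 lay at position 373 or at positions 505 to 552, which stood apart. Those nearest to the Clstn1 spot in block 21 were of the integrin gene Itgb1 (0.04), the receptor kinase gene Met (0.11) and mesothelin (Msln, 0.11), of which Met lay at position 508.

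Beyond the members, 79 of 120 further genes of APP processing had a gene value, the mean of all spots with that single name. Of them 9 rose and 22 fell (39.2% past the threshold beside 22.6% of all 8146 genes, of which 12.4% rose and 10.3% fell). Their median log2 ratio was -0.07 and that of all genes 0.01. Without the positions that stood apart, 3 rose and 19 fell of the 67 genes left (32.8% beside 18.7% of 7489 genes, of which 599 rose and 805 fell). The genes came in 7 lists chosen with earlier results of these data known, and of the measured genes Bace1 stands in 2 of them. Aph1b, Aph1c, Aplp1, Bace2, Clstn3, Mmel1 and Ide had no spot with their name alone in the annotation used here.

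Of 13 measured interactors of γ-secretase, 0 rose (limma, and 0 were higher at an unadjusted p under 0.05) and 2 fell. Their share past the threshold was 15.4% beside 22.6% of all genes, and their median was -0.08. Erlin2, an endoplasmic reticulum protein found with the complex, was at -0.40 (adjusted p = 0.00325, limma), and Tmed10, a cargo receptor of the early secretory pathway that modulates γ-secretase, at -0.35 (adjusted p = 0.00358). Of 7 APP-related membrane proteins, 0 rose (limma, with 1 higher at an unadjusted p under 0.05) and 2 fell. This was 28.6% of the list beside 22.6% of all genes, with a median of -0.08. Itm2b, whose product BRI2 binds APP, was at -1.23 ± 0.15 (SD, n = 3, limma adjusted p = 2.97e-04), and its 2 spots were alike at -1.22 and -1.23. Its relative Itm2c was at -1.10 ± 0.21 (limma adjusted p = 7.45e-04). Clstn2, the measured relative of Clstn1, was at 0.11 and did not pass (limma adjusted p = 0.0823).

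Of 13 cytoplasmic partners of APP, 3 rose and 1 fell (30.8% beside 22.6% of all genes, median -0.01). Mapk8ip2, a scaffold of JNK signalling, was at 0.85, which rested on a spot at position 551 (2.39), while its other spots were at 0.16 and 0.00. Without the positions that stood apart it was at 0.08 and did not pass (limma adjusted p = 0.231). The kinesin heavy chain gene Kif5b was at 0.52, although none of its 3 spots passed alone, and Appbp2 at 0.41. The endocytic adaptor gene Dab2 was at -0.47, with 3 of its 4 spots past the threshold, from -0.52 to -0.95.

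Of 7 other secretases and ADAM proteases, 0 rose (limma, and 0 were higher at an unadjusted p under 0.05) and 3 fell. The share was 42.9% beside 22.6% of all genes, although the list's median was 0.03. Bace1, the β-secretase gene, was at -0.30, -0.37 and -0.50 on arrays 1 to 3, low on each, and its gene value of -0.39 ± 0.10 passed (SD, n = 3, limma adjusted p = 0.0044). The same spot missed the threshold in the adjustment over spots (limma adjusted p = 0.00532). Adam9 was at -0.39, -0.59 and -0.37 (mean -0.45, limma adjusted p = 0.00382), on a spot at position 522. Adam19 was the lowest at -1.09 ± 0.045 (limma adjusted p = 1.51e-04).

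Regulators of Adam10 and Adam17 held 16 measured genes, of which 3 rose and 4 fell (43.8% beside 22.6% of all genes, median 0.02). Timp1, an inhibitor of metalloproteases that also blocks ADAM10, was at -1.16 (limma adjusted p = 4.22e-04, 1 spot, position 529), and Rhbdf1, an inactive rhomboid that carries ADAM17 to the cell surface, at -0.79 (limma adjusted p = 8.72e-04). The proprotein convertase gene Pcsk6 was at 0.98 and Timp4 at 0.73. Without the positions that stood apart, Pcsk6 was at -0.22 and Timp4 at -0.20, neither past the threshold. Of the 13 genes left, 0 rose (limma, and 0 were higher at an unadjusted p under 0.05) and 3 fell, around a median of -0.20. That is 23.1% beside 18.7% of all genes left.

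Degradation and clearance of amyloid-β had 17 measured genes, of which 2 rose and 7 fell (52.9% beside 22.6% of all genes). The median was -0.28. The membrane metalloprotease gene Mmp14 was at -1.58 (limma adjusted p = 5.85e-04, 1 spot, position 512), the lipoprotein receptor gene Vldlr at -1.48 on 3 spots that all fell, the urokinase gene Plau at -1.17 (1 spot, position 526) and the cholesterol exporter gene Abca1 at 1.42 (position 530). The lysosomal protease genes Ctsd and Ctsb, named here after their values were seen, were at -0.85 and -0.74. All 5 spots of Ctsd fell, from -0.71 to -1.04, while the 2 spots of Ctsb were at -1.31 and -0.17. Without the positions that stood apart 1 rose and 5 fell of 12 genes (50% beside 18.7% of all genes left).

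Of 7 measured genes that have been put forward as targets of the APP intracellular domain, 1 rose and 4 fell. Their share was 71.4% beside 22.6% of all genes, and their median was -0.39. Egfr, the receptor of epidermal growth factor, was at 1.84, on spots at positions 533 and 543 alone. Tropomyosin 1 (Tpm1) was at -0.57, the tetraspanin gene Cd82 at -0.56 and stathmin (Stmn1) at -0.40, and the spots of each of the 3 genes fell. Without the positions that stood apart 0 rose (limma, and 0 were higher at an unadjusted p under 0.05) and 4 fell of 6 genes. That is 66.7% beside 18.7% of all genes left.

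**Figure D4:**
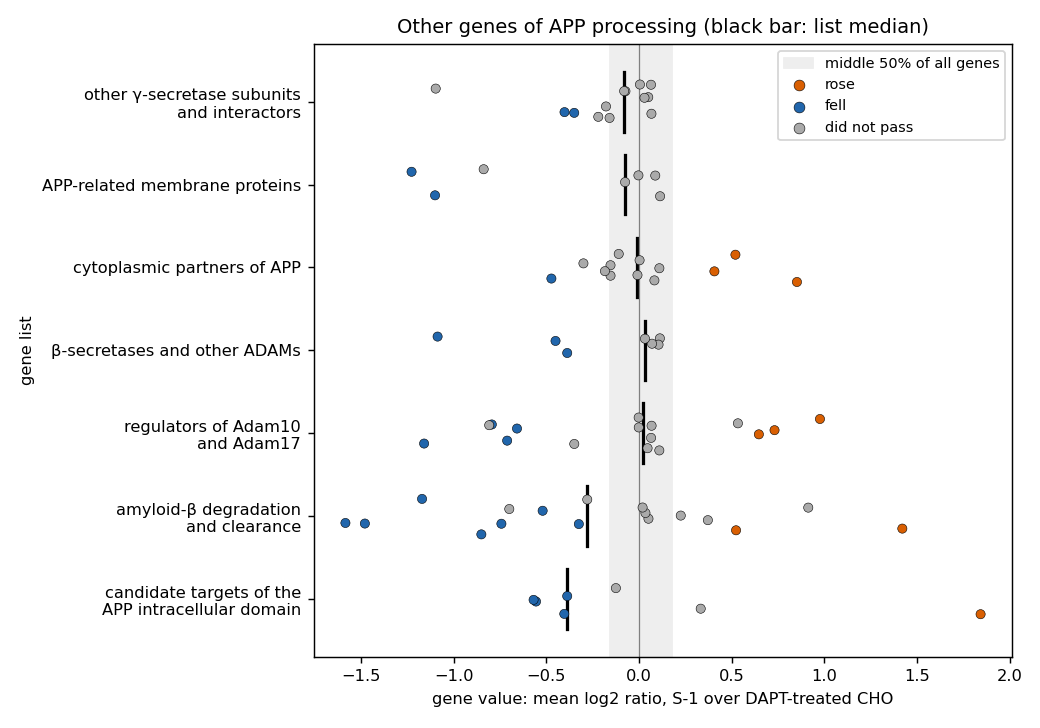
Gene values (horizontal axis, mean log2 ratio over 3 arrays, positive where S-1 is higher) of the 7 lists of further genes (vertical axis), with genes that rose, fell or did not pass in different colours, each list's median as a bar and the middle 50% of all genes shaded. The medians of 5 lists lie between -0.08 and 0.03, and those of amyloid-β degradation and clearance (-0.28) and of the candidate targets of the APP intracellular domain (-0.39) lie lower.

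**Figure D5:**
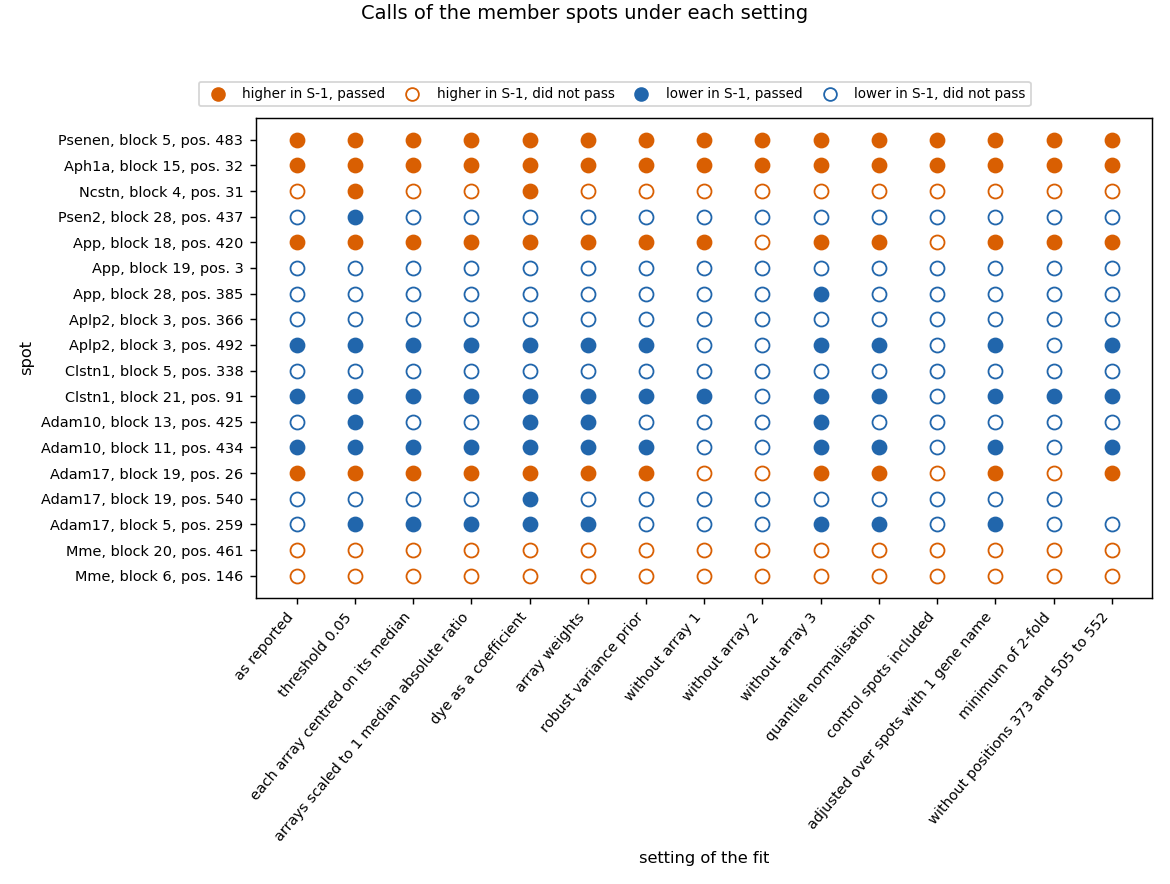
Calls of the 18 member spots (vertical axis) in the fit as reported and under 14 alternative settings (horizontal axis), filled where the spot passed and coloured by direction, with a gap where a setting leaves the spot out. Psenen and Aph1a are filled in every column, 5 other spots that passed as reported lose the call in some columns, and no spot changes direction.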

How the data were processed

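RNA of 3 S-1 and 3 DAPT-treated CHO cultures was compared on 3 two-colour mouse cDNA arrays. The authors read the scans with GenePix Pro and deposited log2 ratios, 1 for each spot of each array, after lowess normalisation within print-tip groups and with no background subtracted. No intensities were used here, so that signal over background is unknown, and 3 arrays limit the precision (the smallest two-sided p of an exact sign permutation test is 0.25). Print-tip normalisation centres each block, so that a shift shared by most spots of a block would not be seen.

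The deposited ratios were used as they are. The 23 positions per block with no gene name in any block (736 of 17664 spots) were taken as controls and left out. Gene names came from the platform annotation, which can be old. Of the tested spots 12563 had 1 name, 412 had several and 3953 had none. Each spot, each gene value (mean of all spots with that single name) and each within-array difference between 2 spots of a gene was tested against 0 with limma 3.58.1 in R 4.3.3 (lmFit, eBayes), with Benjamini-Hochberg adjustment over all spots, genes or pairs and a threshold of 0.005. Intervals are 95% intervals from the same fits. The procedure was tested on simulated data.

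The members and gene lists were chosen with earlier results of these data known. Named were all members, 10 relatives whatever their values, up to 4 passing genes per list with the largest change, and the 3 spots nearest to each member spot that passed with a mean beyond 1 either way. Ctsd and Ctsb were named outside this rule, after their values were seen. Alternatives were a threshold of 0.05, centring, scaling and quantile normalisation of the arrays, a dye coefficient, array weights, a robust variance prior, each array left out, controls included, adjustment over singly named spots, a 2-fold minimum and the median of a gene's spots. Leaving out positions 373 and 505 to 552 was chosen after seeing the data.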

Additional observations from a re-analysis of the deposited data

How the results depend on the processing

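No member spot, gene value or pair changed direction under any alternative tried. Of the alternative results for member spots, 218 kept their side of the threshold, 17 passed newly and 16 lost the call. For gene values these numbers were 107, 6 and 7, and for pairs 80, 12 and 6. Each ratio already sets 1 S-1 culture against 1 CHO culture within an array, so the tests of these ratios were themselves paired by array. There is 1 group of arrays, and no separate paired fit was made.

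Spots past the threshold numbered 3080 as reported, 6733 at 0.05, 6835 with the dye as a coefficient, 5393 with array weights, 1186 with the controls included, 739 with a 2-fold minimum and 363 to 6265 when 1 array was left out. Member spots that rose numbered 4, with 2 when the controls were included and 2 to 4 without 1 array. Member spots that fell numbered 3, with 6 at 0.05, 6 with the dye, 5 with array weights, 0 with the controls included, 1 with a 2-fold minimum and 0 to 6 without 1 array. With the controls included, and also without array 2, 6 member spots were lower at an unadjusted p under 0.05 (limma). Gene values past the threshold numbered 1845, with 3765 at 0.05, 3660 with the dye, 3075 with array weights and 486 to 3302 without 1 array. Member genes numbered 5, with 8 at 0.05 and 2 to 6 without 1 array. Pairs numbered 956, with 2273 at 0.05, 2326 with the dye, 1802 with array weights, 386 without the positions that stood apart and 199 to 2178 without 1 array. Member pairs numbered 5, with 8 at 0.05, 8 with the dye and 1 to 9 without 1 array. Of the counts without 1 array, the lowest came without array 2 (for member genes without array 1 as well) and the highest without array 3, where S-1 RNA is in Cy3 alone and dye and line cannot be told apart.

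The median of the γ-secretase interactors moved from -0.08 to -0.16 with the median of a gene's spots and to -0.16 without the positions that stood apart (-0.11 to -0.06 without 1 array), that of APP-related membrane proteins to -0.0854 with centring (-0.08 to -0.07), that of cytoplasmic partners from -0.01 to -0.0765 with array weights (-0.10 to 0.00876), that of the regulators of Adam10 and Adam17 from 0.02 to -0.20 without those positions (-0.0168 to 0.0484) and that of amyloid-β degradation from -0.28 to -0.32 without them (-0.29 to -0.26). Without 1 array the candidate targets lay at -0.40 to -0.33 and the β-secretases and ADAMs at 0.01 to 0.05. The cause of these moves was not tested.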
